A study of Mus musculus with 228 samples.

Results

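The liver was compared with other chow-fed tissues of a mouse RNA-seq survey of 5 light-dark cycles. The comparison used 26 of the 228 libraries, the chow livers left after 4 chow livers with 40.9% to 62.6% of counts in mitochondrially encoded genes were set aside by the rule of the comparison. Each gene's mean over the 26 livers was set against its highest mean among 8 tissues, which were hypothalamus, inguinal white fat, spleen, thymus and the epithelium of ileum, jejunum, cecum and colon. These tissues gave 121 libraries, 16 of cecum and 15 of each of the others, so that 147 libraries entered the fit. The 15 chow mammary gland libraries of the survey were not among them. Levels are in CPM, the usual depth-scaled count unit, taken relative to the counts left after removal of the 37 mitochondrially encoded genes.

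All mice were C57BL/6N, 10 weeks old when selected, housed singly and kept on their cycle for 42 days. The labels do not state their sex. Chow mice had sterilized feed and water, and a further arm received the same feed with a cocktail of broad-spectrum antibiotics in the drinking water. The cycles were LD0/24 (constant darkness), LD8/16, LD12/12, LD16/8 and LD24/0 (constant light), named by hours of light and dark. There were 5 chow livers in each of LD0/24, LD8/16, LD12/12 and LD24/0 and 6 in LD16/8, and 29 livers from antibiotics mice served as libraries outside the comparison. Nothing in the labels says whether libraries of a group came from separate mice, and p-values therefore reflect only how far these libraries differ, which may be technical.

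Hepatocytes, the main cell of the liver, secrete most plasma proteins, make bile acids from cholesterol, convert ammonia to urea and chemically modify drugs and steroids. Their gene programme is set by a network of transcription factors, among them HNF4A, the FOXA proteins and C/EBP proteins, and several of these also act in intestinal epithelium. Hepatocytes near the portal vein and near the central vein specialise in different pathways, and the organ also holds Kupffer cells (resident macrophages), sinusoidal endothelium, stellate cells and bile duct cells.

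The 26 livers held 76873274 to 136286895 counts, with 2.96% to 30.4% mitochondrial, and the hepatocyte markers Alb, Apoa2, Serpina1a, Fga, Cyp7a1 and Cps1 were detected in every one of them. Several libraries stood apart. Liver LD0/24 replicate 1 had the largest mitochondrial share among the 26 (30.4%). Livers LD0/24 replicate 5 and LD16/8 replicate 6 were high in acute phase genes, and the latter had a summed level of 10 neutrophil genes of 1381 CPM against a median of 31.0. Among the other tissues, inguinal fat LD16/8 replicate 1 held 594508 CPM of milk protein genes, and 3 cecum columns were identical and were counted once. Calls without the doubtful livers are given beside the counts they touch.

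Of 26103 genes tested, 830 (3.18%) were higher in liver than in each of the 8 tissues, and 6857 (26.3%) were lower than in each. Both calls required an adjusted p below 0.05 with edgeR's quasi-likelihood test, taking for each gene the largest of its 8 p-values before Benjamini-Hochberg adjustment. A gene was called liver-enriched when it was also at least 10-fold above the highest tissue mean, which held for 463 genes (1.77%). Among the liver-enriched genes, 227 had a ratio of at least 100 and 99 a ratio of at least 1000, whereas the median ratio over all tested genes was 0.0779. CPM values of a library share a fixed sum. The median log2 difference between liver and a tissue was -0.98 to -1.91, and -0.13 to -0.48 after TMM scaling, which equalises the bulk of genes. With TMM scaling 2054 genes were higher and 1708 lower, so higher calls made up 54.6% of calls in place of 10.8%, and all 463 liver-enriched genes were among the 628 found that way. In bulk tissue, fewer cells of a type and less RNA per cell cannot be told apart.

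The 26 livers lay above every one of the 121 other libraries for 538 genes (2.06%), and below every one for 199 (0.762%). Of the liver-enriched genes, 385 did not overlap, and 393 did not when liver LD0/24 replicate 1 was left out. Together the liver-enriched genes took 32.9% to 42.2% of the counts of a chow liver (median 37.6%) and at most 0.234% of any other chow library, a description since these libraries chose the genes. In libraries that had no part in choosing them, the share was 33.6% to 38.9% in the 29 antibiotics livers and 34.8% to 39.4% in the 4 chow livers set aside. In the antibiotics livers 442 of the 463 had a mean at least 10-fold above the highest chow tissue mean, and 389 were above every library of the 8 tissues in every antibiotics liver. Only the liver side of these counts was new, since the libraries of the 8 tissues were those that chose the genes. Refitting without liver LD0/24 replicate 1 gave 834 higher and 461 liver-enriched genes, and refitting without livers LD0/24 replicate 5 and LD16/8 replicate 6 gave 819 and 460. Both refits were chosen after seeing the data.

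**Figure D1:**
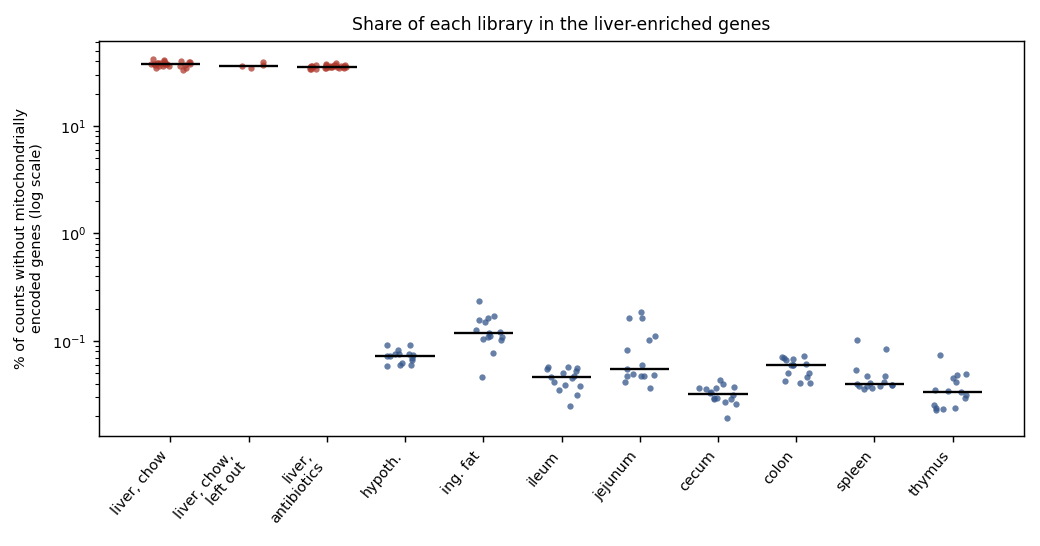
Share of each library's counts, in percent on a log axis, taken by the 463 liver-enriched genes, with a point per library and a bar at the median. Chow livers lie between 32.9% and 42.2%, and no library of the 8 other tissues exceeds 0.234%.

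Promoters of 5 secreted plasma protein genes show a feature shared by part of the liver-enriched genes, the motif GTTAAT on either strand. Sequences are from the RefSeq promoter table on GRCm38.p6, 250 bases before to 50 after the start. The 5 were chosen after the motif search because each holds this motif within 100 bases before its start. They are chr5:90460620-90460919 (+) for Alb, chr5:89457849-89458148 (-) for Gc, chr12:103863570-103863869 (-) for Serpina1a, chr3:83025903-83026202 (+) for Fga and chr3:83049814-83050113 (-) for Fgb. Capitals mark the motif, which begins at position -32 in Alb, -52 in Gc and -21 in Serpina1a relative to the start, and as ATTAAC at -43 in Fga and -29 in Fgb.
Alb: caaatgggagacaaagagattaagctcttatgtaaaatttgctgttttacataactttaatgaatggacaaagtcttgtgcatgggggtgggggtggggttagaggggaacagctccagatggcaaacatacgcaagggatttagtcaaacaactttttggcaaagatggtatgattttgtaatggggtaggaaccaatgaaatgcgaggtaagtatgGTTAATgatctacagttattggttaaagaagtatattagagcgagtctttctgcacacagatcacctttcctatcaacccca
Gc: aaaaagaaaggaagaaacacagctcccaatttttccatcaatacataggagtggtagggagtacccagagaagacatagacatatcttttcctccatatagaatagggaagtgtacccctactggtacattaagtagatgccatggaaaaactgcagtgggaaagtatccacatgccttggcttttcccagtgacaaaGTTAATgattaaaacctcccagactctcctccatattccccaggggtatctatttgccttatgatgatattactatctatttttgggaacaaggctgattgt
Serpina1a: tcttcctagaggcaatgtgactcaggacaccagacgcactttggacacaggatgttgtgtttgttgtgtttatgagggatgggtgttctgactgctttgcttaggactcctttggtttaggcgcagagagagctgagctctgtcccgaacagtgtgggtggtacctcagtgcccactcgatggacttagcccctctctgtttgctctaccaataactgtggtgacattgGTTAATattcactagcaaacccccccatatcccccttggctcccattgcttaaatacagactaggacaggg
Fga: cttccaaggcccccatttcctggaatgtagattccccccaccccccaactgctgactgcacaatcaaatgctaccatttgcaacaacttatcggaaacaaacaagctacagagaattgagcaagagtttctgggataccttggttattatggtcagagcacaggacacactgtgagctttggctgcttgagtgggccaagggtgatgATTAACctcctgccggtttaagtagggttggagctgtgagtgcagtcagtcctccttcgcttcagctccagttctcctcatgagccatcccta
Fgb: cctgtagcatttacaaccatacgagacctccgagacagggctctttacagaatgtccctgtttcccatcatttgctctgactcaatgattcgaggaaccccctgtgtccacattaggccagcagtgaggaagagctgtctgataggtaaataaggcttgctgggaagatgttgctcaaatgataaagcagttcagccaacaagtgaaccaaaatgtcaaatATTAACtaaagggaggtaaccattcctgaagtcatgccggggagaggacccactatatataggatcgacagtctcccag

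The table held 437 promoters of 343 liver-enriched genes. GTTAAT on either strand was in 75 of them (17.2%), against 5.75% of the 22768 promoters of tested genes. Of the other motifs searched on both strands, TGTTTAC (FOXA) was in 10.5% against 3.22%, CAAAGTCCA (part of the HNF4 site) in 3.66% against 0.505%, TATAAA in 22.0% against 10.3%, and TTGCNNCAA (C/EBP) in 2.29% against 1.84%. In the 100 bases before the start, a window set after the positions were seen, GTTAAT was in 10.98% of liver-enriched and 1.93% of tested promoters. The shares count promoters, so genes with several promoters and families of gene copies enter more than once. A match describes letters in this window and does not show binding.

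Ratios of genes called higher were ranked where the liver mean was at least 50 CPM and the highest tissue held more than 3 counts. The count rule left out 22 of the 463 liver-enriched genes. Where thymus was the next tissue, as for Alb (0.193 to 152 CPM there), a ratio rests on low levels that varied between libraries. The 10 named genes with the largest ratios had ratios of 4016 to 6849. They were Slco1a1 (a sinusoidal organic anion transporter), Mat1a (the hepatic enzyme that makes S-adenosylmethionine), Cyp2b9, Akr1c6, Ugt3a1, Mug1, Acsm1, Cyp2c50, Pzp and Abcb11 (the bile salt export pump). Mat1a was at 2154 CPM in the lowest liver, 2995 in the median and 4569 in the highest, and its next tissue, thymus, was between 0 and 2.31 CPM. No other library came near the livers, and the log2 difference was 12.62 ± 0.79 (SE, adjusted p = 1.64e-26 with edgeR). Slco1a1 ran from 16.2 through a median of 78.2 to 132.7 CPM in the livers and reached at most 0.105 CPM in thymus. Its groups did not overlap, and its log2 difference was 12.41 ± 0.60 (adjusted p = 1.95e-28 with edgeR).

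Plasma carrier and inhibitor genes were the list with the largest median ratio, 349 over 35 tested genes. Of these, 29 were higher than in all 8 tissues and 25 were liver-enriched, against 3.18% and 1.77% of all genes. Alb, the main plasma protein, was at 94627 CPM in the lowest liver, 160234 in the median and 187057 in the highest, and thymus, the next tissue, ranged from 0.193 to 152 CPM. The groups did not overlap, and the log2 difference was 11.77 ± 1.17 (adjusted p = 3.48e-16 with edgeR). Pzp, a broad protease inhibitor, had the largest ratio of the list (4256), followed by A1bg (3816) and Ahsg, which encodes fetuin-A (3769). Gc, the vitamin D carrier, was the most even of the liver-enriched genes of at least 100 CPM, with 5733, 6511 and 7054 CPM in the lowest, median and highest liver and a coefficient of variation of 5.37%.

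The carriers that were not called were also expressed elsewhere. The acute phase genes Orm1 and Hp were 3.25 and 3.17 times the inguinal fat mean (adjusted p = 0.14 and 0.31 with edgeR), and Itih3 was 2.47 times the hypothalamus mean. Rbp4, the retinol carrier, was higher in every liver than in any other library, 2075 to 4183 CPM against at most 1862 in inguinal fat, yet its adjusted p was 0.14. Igfals was at 1.90 times the fat mean, and Selenop, the selenium transport protein, at 0.953 times the jejunum mean.

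Of the 27 coagulation genes, 26 were higher than in all 8 tissues and 24 were liver-enriched, with a median ratio of 301. Fga, a fibrinogen chain, was at 741.9, 3419 and 5610 CPM in the lowest, median and highest liver and at 0 to 3.09 CPM in thymus. The lowest value was that of liver LD0/24 replicate 1, and it too was above every other library. The ratio of Fga, 3959, was the largest of the list, followed by those of Hrg (3432) and Fgb, another fibrinogen chain (3131). The single member not called was Pros1, the protein S gene, at 46.2 CPM in liver and 65.9 in inguinal fat. With TMM scaling the direction of Pros1 turned, to a log2 ratio of 0.67 (adjusted p = 0.0109).

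Of 23 complement genes tested, 20 were higher and 13 liver-enriched, with a median ratio of 81.9. Mbl1, a mannose-binding lectin, had a liver range of 149 to 247 CPM around a median of 193, against at most 0.306 in thymus. Its ratio was 3231, and those of C8b and Apcs were 1922 and 1772. C3, the central component, was called higher at 5.10 times the inguinal fat mean. Mbl2, C6 and C2 were not called, and C2 was at 87.9 CPM in liver and 113 in inguinal fat.

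**Figure D2:**
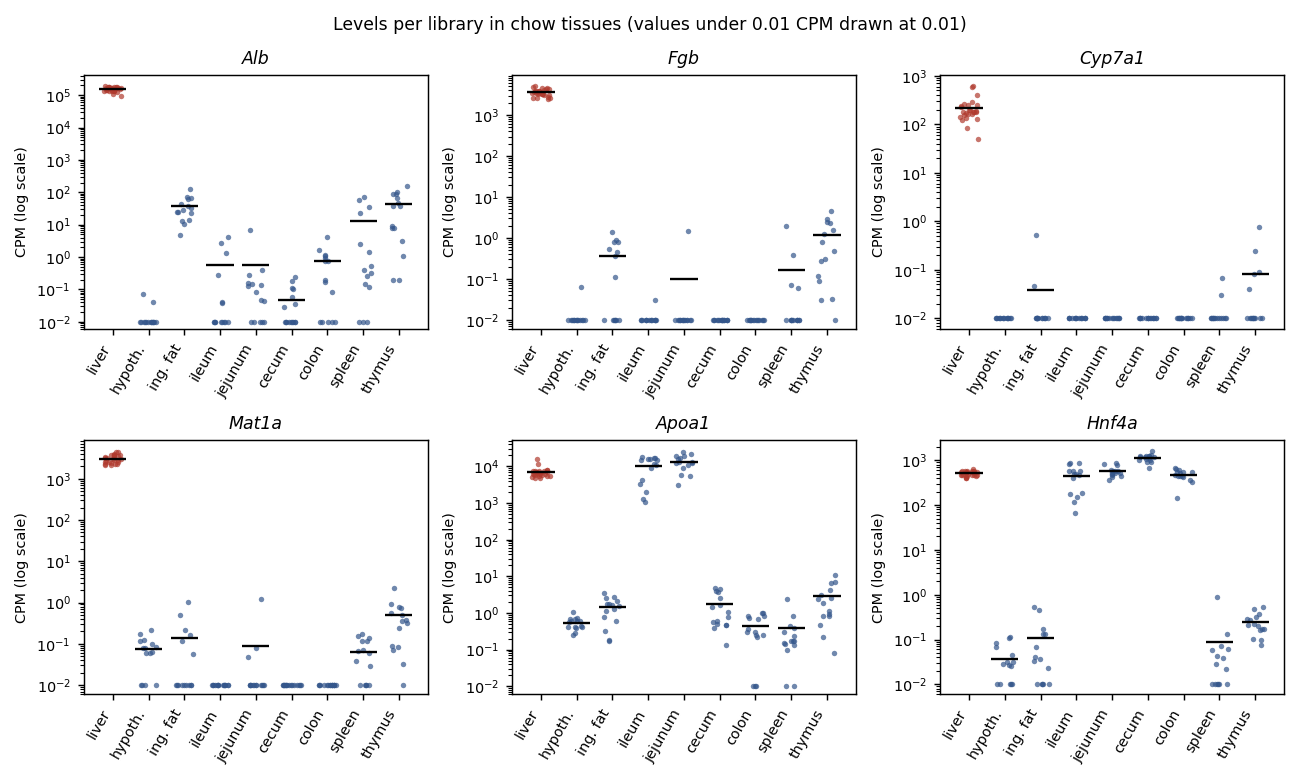
Levels of 6 genes in every chow library, in CPM on a log axis, with liver in red, the 8 other tissues in blue and a bar at the mean. Alb, Fgb, Cyp7a1 and Mat1a are separated from all other tissues, whereas Apoa1 is shared with ileum and jejunum and Hnf4a with the 4 gut epithelia.

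Lipoprotein genes divided between liver and small intestine, the 2 organs that secrete lipoproteins. Of 25 tested, 13 were higher and 11 liver-enriched, with a median ratio of 3.27. Apoa5, which promotes triglyceride clearance, was at 569, 926 and 2120 CPM in the lowest, median and highest liver and at most 1.83 in thymus, a ratio of 2072. Apoa2 and Saa4 followed with ratios of 2036 and 1704. The jejunum was the highest tissue for Apoa1, Apoa4, Apob, Apoc2, Apoc3, Fabp1, Mttp, Abcg5 and Abcg8, none of which was called. Apoa4 had the lowest ratio, 440 CPM in liver and 17637 in jejunum, a log2 difference of -5.32 ± 0.51. Apoa1, the main protein of high-density lipoprotein, was at 4764, 6543 and 15818 CPM across the livers, and the jejunum libraries overlapped them. Angptl8 and Pon3 were not called either.

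Of 23 bile acid genes tested, 18 were higher and 10 liver-enriched, with a median ratio of 4.01. The largest ratios were those of the transporters Slco1a1, Abcb11 and Slc10a1, the last of which takes up conjugated bile acids (3301). Cyp7a1, which catalyses the first step of the classic bile acid pathway, varied from 50.5 through 183 to 612 CPM among livers and was at most 0.780 CPM in thymus. All livers were above all other libraries, and the log2 difference was 11.43 ± 0.78 (adjusted p = 9.76e-21 with edgeR). Not called were Cyp7b1, Abcc2, Scp2, Klb and Nr1h4. Nr1h4, the bile acid receptor FXR, was at 88.5 CPM in liver and 149 in colon. Of 5 ileal bile acid genes none was higher in liver, and Fabp6 and Fgf15 had no count in any of the 26 livers.

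Amino acid breakdown gave 24 of 33 genes higher and 19 liver-enriched, with a median ratio of 20.2. Mat1a led, followed by Bhmt, which remethylates homocysteine (3784), and Ftcd of histidine breakdown (3382). Bhmt was at 965, 5020 and 7862 CPM in the lowest, median and highest liver, with no overlap with thymus (at most 7.98 CPM). Cth, Oat, Gstz1, Gpt, Got1, Sdsl, Csad, Cdo1 and Glul were not called. Glul, glutamine synthetase, had the lowest ratio of the list, at 912 CPM in liver and 2619 in inguinal fat. Under TMM scaling Oat, Gstz1 and Got1 were called higher, with log2 ratios of 0.65, 0.84 and 0.76.

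Of the 8 urea cycle genes, 5 were higher and 4 liver-enriched, namely Arg1, Ass1, Asl and Cps1. Arg1, which releases urea, was at 1100, 1385 and 1691 CPM in the lowest, median and highest liver and at most 4.92 in colon, with no overlap and a ratio of 1272. Cps1, the entry enzyme, was at 621 to 6051 CPM in liver, and the jejunum reached 1220, so the groups overlapped at a ratio of 10.4. Otc missed the threshold (ratio 2.57, adjusted p = 0.063 with edgeR), as did Nags and Slc25a15, at 1.34 and 0.596 times the jejunum mean.

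Glucose and glycogen genes were mostly shared. Of 17 tested, 5 were higher and 3 liver-enriched, among them Gckr (550) and Fbp1, a gluconeogenic enzyme (33.4), with a list median of 1.26. With TMM scaling 13 of 17 were higher and with DESeq2 11. Among those not called were G6pc, Pklr, Pck1, Pygl, Slc2a2, Khk, Tkfc, Ppp1r3b, Ppp1r3c, Pfkfb1 and Pcx. Pcx, pyruvate carboxylase, had the lowest ratio, 0.214 against inguinal fat. Among 5 ketone body genes none was higher, and 2 were with TMM scaling. Oxct1, needed to use ketone bodies, was lower in liver than in all 8 tissues, at 2.66 to 7.80 CPM in liver and 324 in inguinal fat.

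Cytochrome P450 genes of families 1 to 4 ranged widely. Of 75 tested, 38 were higher and 33 liver-enriched, with a median ratio of 2.86. Cyp2b9 had the largest ratio (5828), at 86.5, 330 and 532 CPM in the lowest, median and highest liver and at most 0.468 in thymus. Cyp2c50 (4419) and Cyp2c54 (3672) followed. Cyp2e1 and Cyp3a11, both abundant in liver, were not called. Cyp2e1 was at 2929 CPM in liver and 3486 in inguinal fat and Cyp3a11 at 1127 CPM and 1355 in jejunum. Cyp2j12, Cyp2c66, Cyp2w1 and Cyp4f40 had no count in any liver. Cyp2s1 was lower in liver than in all 8 tissues. Of genes known to be sex-biased in mouse liver, chosen after their values were seen, the female-biased Cyp2b9, Cyp3a41a and Cyp3a41b had means of 326, 2918 and 2762 CPM and the male-biased Cyp4a12a of 0.207 CPM. They are only a part of the genes known to be sex-biased, and the sex of the mice was not inferred from them.

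Of 37 conjugating and other drug-modifying enzyme genes, 24 were higher and 11 liver-enriched, with a median ratio of 5.52, and 18 were liver-enriched with TMM scaling. Ugt3a1 (4946) and the carboxylesterase gene Ces1c (2855) led. Nat8 had the lowest ratio, 0.815 CPM in liver and 109 in jejunum. The major urinary protein genes, which encode pheromone carriers, gave 20 of 21 higher and liver-enriched, led by Mup3 (221), Mup20 (144) and Mup1 (118). Mup6 was the exception, at 0.153 CPM in liver and 0.547 in hypothalamus. The Mup genes, Serpina1a to Serpina1e, and Cyp3a41a and Cyp3a41b are near-identical copies, so the division of reads among them is uncertain.

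Transcription factors of the hepatocyte network were mostly not restricted to liver. Of 22 tested, 4 were higher than in all 8 tissues (Onecut1, Nr0b2, Ppara and Foxa2) and 1 was liver-enriched, with a median ratio of 0.960. TMM scaling gave 11 higher and DESeq2 12, and 1 was liver-enriched under each. Onecut1, encoding HNF6, was at 2.29, 8.47 and 33.9 CPM in the lowest, median and highest liver, and hypothalamus was at most 0.946, so the groups did not overlap. Its log2 difference was 4.89 ± 0.59 (adjusted p = 1.36e-09 with edgeR). Ppara, the fatty acid receptor, was 3.14 times the cecum mean, Foxa2 3.04 times the cecum mean and Nr0b2 4.01 times the jejunum mean.

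Hnf4a and Cebpa, central regulators of hepatocyte genes, had higher means in cecum and in inguinal fat, respectively, in CPM without TMM scaling. That scaling moved the median log2 difference of all genes from -1.244 to -0.1269 against inguinal fat. Against cecum it moved from -1.04 to -0.2685. Hnf4a was at 394, 522 and 653 CPM in the lowest, median and highest liver and at 1130 ± 201 CPM (SD, n = 16) in cecum, 576 ± 151 in jejunum, 478 ± 134 in colon and 456 ± 272 in ileum (n = 15 each). All cecum libraries, from 670 CPM, were above all livers, while the other 3 gut tissues overlapped them, and no other tissue had a mean above 0.244 CPM. Cebpa was at 435 ± 54.2 CPM in liver (n = 26) and 846 ± 253 in inguinal fat (n = 15). Prox1 was above every other library in every liver, 40.2 to 133 CPM against at most 38.7 in hypothalamus, with an adjusted p of 0.18 (edgeR). The direction of Nr1h3 turned with TMM scaling and with DESeq2, to log2 ratios of 0.71 and 0.56.

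**Figure D3:**
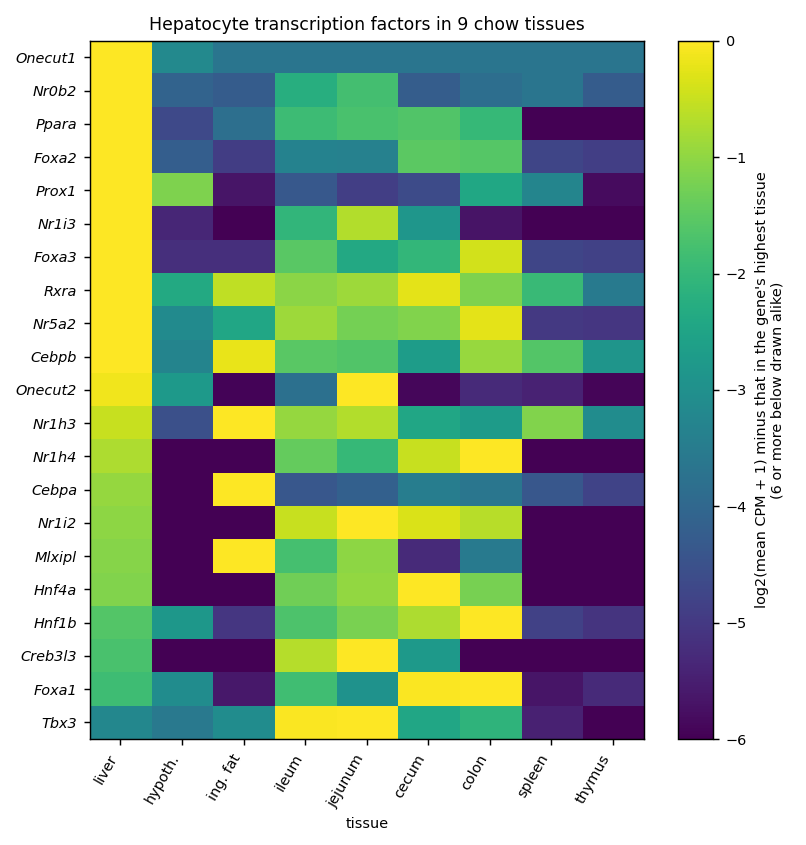
Mean level of 21 of the 22 transcription factors tested in 9 chow tissues, as log2(CPM + 1) minus the value in the gene's highest tissue, where 0 marks that tissue and values of -6 or below share a colour. Liver is at 0 for the upper genes, while Hnf4a peaks in cecum, Cebpa in inguinal fat and Tbx3 in jejunum, all without TMM scaling.

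Hormone, receptor and iron-handling genes gave 16 of 23 higher and 12 liver-enriched, with a median ratio of 24.8. Hamp2 (2695) and Hamp (1321) of the hepcidin family, the iron hormone, led with Inhbe (1063). Hamp ran from 31.5 through 243 to 1081 CPM among livers, against at most 0.637 CPM in thymus. Every liver was above every other library despite that spread. Ghr, the growth hormone receptor, was not called, at 324 CPM in liver and 1011 in inguinal fat, and Ttpal was lower than in all 8 tissues. Igf1, Fgf21, Angptl8, Met and Insr were also not called.

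Of the zone markers, periportal genes were mostly called. Of 10 periportal genes 9 were higher and 8 liver-enriched (median ratio 25.7), and of 12 pericentral genes 4 were higher and liver-enriched, Cyp1a2, Gulo, Cyp2a5 and Lect2 (median 0.871). With TMM scaling the counts were 10 of 10 and 5 of 12. The difference between the 2 lists was not tested. Axin2 and Tbx3 of the central list had their highest mean in ileum and jejunum, and Lgr5 and Slc1a2 in hypothalamus.

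Among the markers of other liver cells, Clec4f (142) and Vsig4 (86.5) of Kupffer cells and Colec11 of stellate cells (12.3) were liver-enriched. Of 10 Kupffer genes 3 were higher (6 with TMM scaling), of 10 sinusoidal genes 2, Clec4g and Oit3 (4 with TMM scaling), of 10 stellate genes 1 (3 with TMM scaling) and of 8 bile duct genes 0. The spleen, rich in macrophages, was the highest tissue for 8 of the 10 Kupffer genes. None of the neuron, enterocyte, goblet, adipocyte, B cell, T cell, red cell, neutrophil, acinar, muscle or mammary lists had a member called higher. The summed level of neuron markers in livers was 3.78 to 9.92 CPM and that of mammary markers at most 0.342 CPM.

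**Figure D4:**
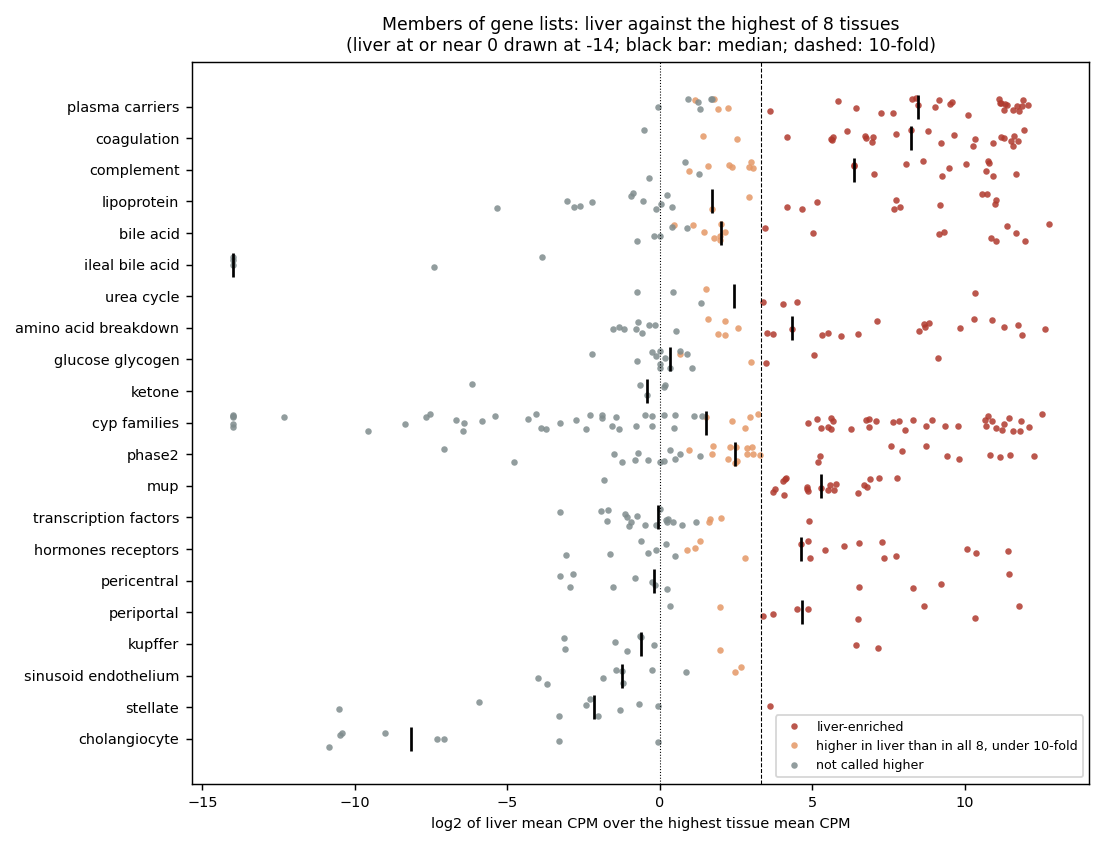
Members of 21 gene lists, each point a gene at the log2 of its liver mean over its highest tissue mean, with a black bar at the list median. Red points are liver-enriched, and coagulation and Mup genes lie almost wholly beyond the dashed 10-fold line while transcription factors spread around 0.

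Thymus was the next tissue for 87 of the 463 liver-enriched genes (18.8%), with a median ratio of 1927, and it was the highest of the 8 tissues for 21.7% of all tested genes. Inguinal fat was next for 81 (17.5%), with a median ratio of 45.4, against 10.03% of all tested genes. Hypothalamus was next for 14.9% of liver-enriched genes against 26.9% of all tested genes. For the 54 liver-enriched genes of at least 1000 CPM, the thymus mean was 373 ppm of the liver mean (median, quartiles 314 and 594), against 138 ppm in inguinal fat. In thymus Alb varied from 0.193 to 152 CPM over 15 libraries. Summed over them, Ahsg was 5.38% and Gc 4.47% of Alb, against 5.79% and 4.26% in liver. Without the 8 thymus libraries over 10 CPM of Alb, a choice made after seeing the data, 828 genes were higher and 479 liver-enriched. The source of these low levels was not tested.

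Genes lower in liver than in each tissue were ranked by the ratio to the lowest tissue. Only those with a lowest tissue mean of at least 10 CPM and no predicted-gene name were ranked. They were led by Sema7a, Acss1, Kbtbd11, Pfkp, Mbp, Tspan13, Pkm, Oxct1, Mgat4a and Tspan3. Sema7a was at 0.0348, 0.107 and 0.379 CPM in the lowest, median and highest liver, and colon, its lowest tissue, was at 5.86 to 30.02 CPM. The groups did not overlap, and the log2 difference was -6.63 ± 0.26 (adjusted p = 6.67e-51 with edgeR). Pkm, the muscle-type pyruvate kinase, was at 11.002, 18.005 and 57.1 CPM in the lowest, median and highest liver against 351 to 529 in thymus. Pfkp, the platelet-type phosphofructokinase, was at 1.56 to 4.47 CPM against 53.7 to 99.6 in spleen. For 9 of the 10 all livers were below every other library, and the exception was Mbp.

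Among the 26 livers, the median coefficient of variation of liver-enriched genes was 26.3% over the 326 with at least 10 CPM, against 20.4% over the 7469 tested genes at that level. Without liver LD0/24 replicate 1 these medians were 23.1% and 18.5%. That library was lowest for 90 of the 326 and highest for 61, counts that were not made over all tested genes. It was lowest for Fga and Ugt3a1 and highest for Mup1, Mup13, Mup14 and Mup17, with a summed Mup level of 22580 CPM against 4247 to 16832 in the others. In the 4 chow livers set aside for their mitochondrial share, Fga was at 522 to 775 CPM, against 742 CPM in that library. Their summed Mup level was 11486 to 16233 CPM. The part of the mitochondrial share in these values was not tested. The most even genes after Gc were Apoh (8.40%), Pemt (8.93%), Serpinc1 (8.99%) and 1300017J02Rik (9.19%).

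Saa2, an acute phase serum amyloid gene, varied most of the liver-enriched genes of at least 100 CPM (coefficient of variation 342%). It was at 2652 CPM in LD0/24 replicate 5 and 1429 CPM in LD16/8 replicate 6, and at 3.21 to 79.6 CPM in the other 24 livers. Of 23 plasma protein and acute phase genes chosen after Saa2 was seen, 12 were higher in both of these libraries than in all others, among them Saa1, Orm2, Hp, Hpx, Itih3, Itih4, C4b and Lcn2. Orm2 was at 595 and 842 CPM in them and at most 109 in the others, and Hpx, the heme carrier, at 7173 and 8543 against at most 3666. The other 11, among them Saa3, Saa4, Crp, Lbp, Cd14, Fga, Fgb and Fgg, were not above all others in both. The share of all tested genes above all others in both was not counted, so these counts have no background. Cp, ceruloplasmin, was at 654 and 664 CPM against a median of 1139 in the others, and Hamp, the iron hormone hepcidin, was at 31.5 CPM in LD0/24 replicate 5, below the other 24 at 64.5 or more, and at 366 CPM in LD16/8 replicate 6. Without these 2 libraries Saa2 had a ratio of 12.1 and was still called higher (adjusted p = 0.000656 with edgeR). A fit with cycle and replicate number as a block kept replicates 1 to 3 only, so it also lacked these 2 libraries. In that fit Saa2 was not called (log2 ratio 3.28, adjusted p = 0.192 with edgeR). After Saa2 the most variable were Mup1, Mup17, Mup13 and Mup14. Saa1 and Saa2 are near-identical copies, so the division of reads between them is uncertain. In the 24 livers other than the 2 high in acute phase genes, Saa1 had a mean of 19.7 CPM. That mean was 0.0183 times the highest tissue mean of Saa1, so the 2 copies differed in where they were highest.

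No gene differed between light cycles in the 26 livers at an adjusted p below 0.05 (0 of 18023, 0.0%, edgeR with TMM scaling). At an unadjusted p below 0.05 there were 1732 genes (9.61%), among them 58 of the 463 liver-enriched genes (12.5%). DESeq2 called 181 genes, 5 of them liver-enriched, and limma-voom 0. A p that misses the threshold does not show that the cycles were alike. The 5 liver-enriched genes with the smallest p were Gm44805, Mug-ps1, Gm3734, Prodh2 and Gm36333, with adjusted p-values of 0.314 to 0.329 (edgeR). Prodh2, a hydroxyproline dehydrogenase, had cycle means of 129 to 171 CPM. The mean share of counts in liver-enriched genes was 39.8% in LD0/24, 36.9% in LD8/16, 37.0% in LD12/12, 38.4% in LD16/8 and 36.1% in LD24/0. For 427 of the 463 the mean of every cycle was at least 10-fold above the highest tissue mean. Both are descriptions, since the same 26 livers chose the genes.

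The antibiotics livers differed from chow livers in many genes, with 3125 of 19032 tested genes higher (16.4%) and 3085 lower (16.2%). Of the liver-enriched genes 122 were higher and 122 lower, 26.3% each. A1bg, a plasma protein gene, was lower in all 29 antibiotics livers than the chow mean of their cycle, at 27.5 to 890 CPM against a chow range of 390 to 2295. The ranges overlapped, and the log2 fold change was -2.59 ± 0.27 (adjusted p = 1.67e-10 with edgeR). Sult3a2, a sulfotransferase gene with no count in any library of the 8 tissues, fell by 2.22 ± 0.25 on the log2 scale (adjusted p = 1.05e-09 with edgeR). Alb had a mean of 113555 CPM against 152737, a log2 fold change of -0.55 ± 0.06 (adjusted p = 3.17e-10 with edgeR).

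The largest rises among liver-enriched genes of at least 10 CPM were those of Cyp2b13, Hamp, Cyp4a14, Igfbp1 and Mug4-ps, and after A1bg and Sult3a2 the largest falls were those of Cyp8b1, Saa2 and Gm33459. Igfbp1, an insulin-regulated binding protein, was at 4.54 to 523 CPM in chow and 5.89 to 334 in antibiotics livers, overlapping widely, with a log2 fold change of 1.11 ± 0.39 (adjusted p = 0.0251 with edgeR). Mug4-ps, a pseudogene of the murinoglobulin family, was at 10.8 to 38.4 CPM in chow and 30.2 to 98.6 in antibiotics livers, all 29 of which were above the chow mean of their cycle. Its log2 fold change was 0.96 ± 0.11 (adjusted p = 1.47e-09 with edgeR). The fall of Saa2 rested on the 2 livers high in acute phase genes. Its log2 fold change was -1.79 (adjusted p = 0.00795) with them and 0.44 (adjusted p = 0.227) without them, and -0.15 (adjusted p = 0.852) with limma-voom.

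By list, 8 of 21 Mup genes (38.1%) were higher and 0 lower in antibiotics livers, against 16.4% higher and 16.2% lower over all genes. Of 22 transcription factors, 9 were higher (40.9%) and 2 lower (9.09%). Of 12 pericentral genes, which mark hepatocytes near the central vein, 7 were higher and 2 lower, and of 10 periportal genes 1 was higher and 2 lower. Of 23 hormone and receptor genes 8 were higher and 3 lower. Other lists had calls in both directions, as had the liver-enriched genes at 26.3% each. Of 35 plasma carriers 22.9% were higher and 22.9% lower, of 27 coagulation genes 22.2% and 37.0%, of 68 P450 genes tested here 27.9% and 32.4%, and of 37 conjugating and other drug-modifying enzyme genes 37.8% and 35.1%. Of the Kupffer genes 6 of 10 were lower, of the red cell genes 8 of 9 and of the neutrophil genes 10 of 10. The summed neutrophil level had a median of 31.0 CPM in chow livers (11.1 to 1381) and 15.2 CPM in antibiotics livers (6.08 to 94.0). The chow maximum was that of LD16/8 replicate 6, 1 of the 2 livers high in acute phase genes. The list counts were not repeated without these 2 livers. The red cell sum was 503 to 4606 CPM in chow and 327 to 1212 CPM in antibiotics livers. The part of these cell markers in the other changes was not tested.

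**Figure D5:**
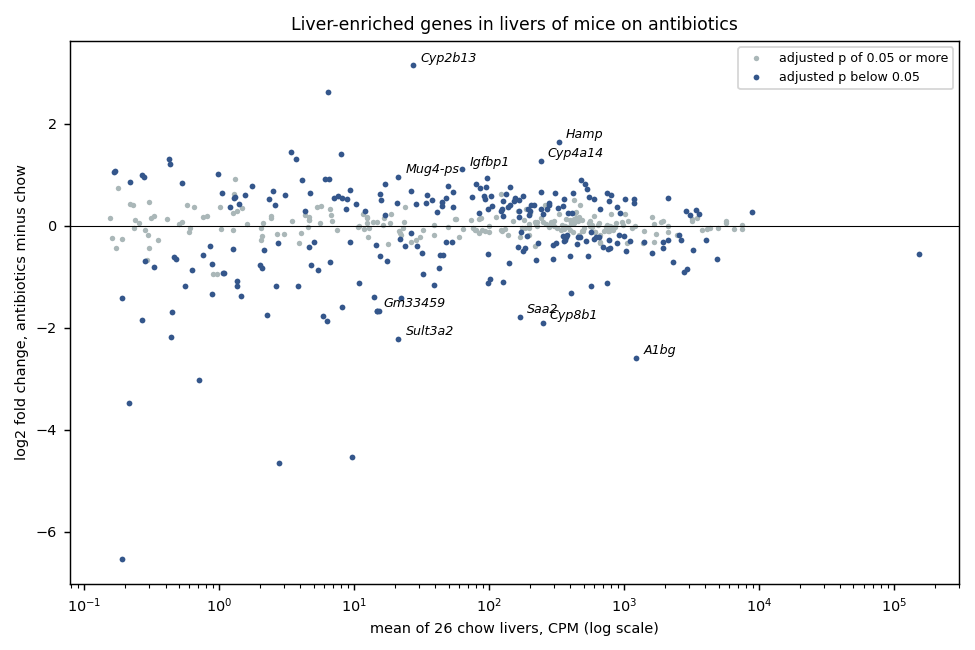
Log2 fold change between antibiotics and chow livers of the liver-enriched genes against their mean in 26 chow livers, in CPM on a log axis, with genes at an adjusted p below 0.05 in blue. Named are the 5 largest rises and falls at a chow mean of at least 10 CPM, from 3.14 for Cyp2b13 to -2.59 for A1bg.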

How the data were processed

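Whole-transcriptome RNA-seq libraries of mouse tissues were made from TRIzol-extracted RNA with a SMARTER mRNA-Seq kit, per the labels' protocols. The submitters' processing notes name HISAT2 2.1.0, SAMtools 1.10, StringTie 2.2.1 and the build GRCm39, with no role or order. The authors deposited one table of whole-number values per gene and library, taken here as estimated counts not normalized for depth, since StringTie is named and 146169 values equal 4 against 86362 equal to 3 and 66707 equal to 5. Of its 46333 lines, 2 name no gene (at most 0.114% of a library) and were left out.

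The 37 mitochondrially encoded genes were removed and CPM computed from the remaining total. edgeR 4.0.16 (R 4.3.3, robust quasi-likelihood fit, no TMM scaling, low counts removed with filterByExpr) compared liver with each of 8 tissues. A gene was called when all 8 differences had the same sign and the largest p, adjusted by Benjamini-Hochberg over all tested genes, was below 0.05. Each SE was derived from the fold change and its F statistic. Light cycle (26 livers) and antibiotics (26 and 29 livers) were tested with TMM scaling. DESeq2 1.42.0 and limma 3.58.1 (voom) served as alternatives. Tables and plots used Python 3.11.15, pandas 2.3.3 and matplotlib 3.10.9. One antibiotics liver, LD0/24 replicate 1, had no count in any mitochondrially encoded gene and was left out. The procedure was tested on simulated counts.

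Genes were named by rule: per list the 3 largest ratios, the members not called and the lowest ratio; the 10 largest and 10 smallest ratios; the 5 most and least variable; and the 5 first genes of the cycle and antibiotics tests. The 10 largest ratios were taken at a liver mean of at least 50 CPM and more than 3 counts in the highest tissue. The 10 smallest were taken at a lowest tissue mean of at least 10 CPM. Both rankings left out predicted-gene names (Gm, LOC or Rik). Members and lists were chosen with earlier results of these data known. The acute phase genes, the sex-biased P450 genes and the promoters shown were chosen after their values were seen. A few list members are counted but not reported here by name. CPM is not per length, so levels are not compared between genes. Liver totals of 76873274 to 136286895 counts give small counting error for abundant genes, and the number of libraries sets the precision.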

Additional observations from a re-analysis of the deposited data

Results flagged for a closer look

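For the 10 genes with the largest ratios and the share of counts in liver-enriched genes, each in the 5 cycles, 6 of 55 groups of 5 or 6 livers held a liver far from the others of its cycle, where chance gives about 1 in 20 groups, or 2.75. Slco1a1 was at 132.7 CPM in LD24/0 replicate 1, with the nearest liver of that cycle at 103.0 CPM. Akr1c6 was at 1434 CPM in the same library, with the nearest at 786.1 CPM. Ugt3a1 was at 13.34 CPM in LD0/24 replicate 1, with the nearest at 56.37 CPM, and that library had 30.4% of counts in mitochondrial genes. Acsm1 was at 432.9 CPM in LD16/8 replicate 6, with the nearest at 355.9 CPM. Abcb11 was at 1064 CPM in LD0/24 replicate 3, with the nearest at 611.0 CPM, and at 918.1 CPM in LD12/12 replicate 1, with the nearest at 521.1 CPM.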

How the results depend on the processing

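Genes higher in liver numbered 830, and 2054 with TMM scaling, 1939 with DESeq2 and 704 with mammary gland added. Liver-enriched genes numbered 463, and 448 with mammary gland added. Genes lower in liver numbered 6857, and 1708 with TMM scaling, 2070 with DESeq2 and 3778 with mammary gland added. The cause was not tested. Leaving out each replicate number in turn gave 743 to 816 higher, 5903 to 6677 lower, 454 to 489 liver-enriched and 539 to 611 non-overlapping genes, and 434 to 443 liver-enriched genes at least 10-fold up in antibiotics livers. It gave 4867 to 6496 antibiotics calls (2381 to 3258 higher, 2481 to 3238 lower; among liver-enriched genes 99 to 140 higher and 99 to 123 lower), 0 to 1 cycle calls and 0 to 0 among liver-enriched genes. Cycle calls were 0, and 181 with DESeq2 (5 liver-enriched), 1 each with no filter, with the replicate block, with all 30 chow livers and with values divided by 4. Chosen after seeing the data, leaving out liver LD0/24 replicate 1 gave 2 cycle calls, and leaving out LD0/24 replicate 5 with LD16/8 replicate 6 gave 3.

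With cycle and replicate number as a block, in replicates 1 to 3 only, there were 762 higher, 5511 lower and 432 liver-enriched genes. With the replicate number as a block over all replicates there were 6037 antibiotics calls. Same-numbered libraries of liver and another tissue had a median correlation of deviations of -0.00889 (101 pairs, 11 over 0.1). Differently numbered libraries had one of 0.00582 (203 pairs, 31 over 0.1). These values cannot show whether a shared number stands for a shared mouse, since no pair is known to come from the same mouse. Turns of direction were counted only where the main or the alternative fit had an adjusted p below 0.05. On that rule the log2 ratio to the highest tissue turned from below to above 0 for C2 (0.85 with TMM, 0.72 with DESeq2), Gstz1 (0.84, 0.70), Khk (0.49, 0.48), Met (0.60, 0.63), Nr1h3 (0.71, 0.56), Oat (0.65, 0.65) and Scp2 (0.71, 0.70), and with TMM for Got1 (0.76), Insr (0.56) and Pros1 (0.67). With all 60 livers the antibiotics log2 fold change of Gcgr was -0.15 and of Mup2 -0.028, and without the 2 livers high in acute phase genes that of Saa2 was 0.44; over the replicate numbers left out in turn it was -2.04 to -0.54, and with the replicate block its liver ratio was not called. The ratios of 390 genes under 21 alternatives gave 8176 gene-by-alternative values. Of these, 7991 stayed on the same side of the threshold, 108 newly passed it, 60 no longer passed it and 17 are the turned ones above. Turns of direction in genes called in neither fit are counted among the 7991.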
